A study of Mus musculus with 8 samples.

Results

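The genes described here encode proteins that bind pre-mRNA and take part in splicing. They are the heterogeneous nuclear ribonucleoproteins (Hnrnp genes), the SR proteins (Srsf), the SF3 complex (Sf3a and Sf3b), the snRNP proteins (Snrp a to g), the U2AF subunits, the SR repetitive matrix proteins (Srrm) and the CUG-binding Celf proteins. Members were taken by gene symbol from the probes that the platform annotation assigns to 1 gene, without the imprinted Snrpn. The rule found 51 genes with 56 probes, of 13840 genes with 14411 such probes on the array. Transcripts were measured in hypothalamus of male C57BL/6J mice. All of them ate a high-fat diet for 6 weeks, then low-fat food for 2 weeks, then the high-fat diet again for 6 weeks. In the paper's protocol with these steps, the low-fat food was restricted to less than each mouse had eaten before. The high gainer pool came from 20 mice with high weight gain and the low gainer pool from 20 with low weight gain, with 4 arrays for each. The mice were of an inbred strain, the labels name no engineered allele and no age, and the methods give 1 starting age for all. Arrays of a pool are technical replicates, so each p-value below sets the difference between 2 pools against the spread between arrays and says nothing of the spread between mice.

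Splicing removes introns in a stepwise assembly on the pre-mRNA. The U1 snRNP reads the 5′ splice site, U2AF reads the pyrimidine tract and the AG of the 3′ splice site, and the U2 snRNP with its SF3 proteins takes the branch point. Each of these snRNPs is built on a ring of small Sm proteins, while SR proteins and hnRNPs bind exons and introns and favour or oppose the use of nearby sites. Brain tissue is known for its large amount of alternative splicing, and Celf, Srrm3, Srrm4 and several hnRNPs take part in the neuronal programmes.

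RefSeq promoter windows of 300 bases (250 before and 50 after the start, GRCm38.p6) were at hand for 44 of the 51 genes, 70 windows in all. The median CpG count was 25.5 per window, beside 20 over 6589 windows of genes with a tested probe and 7 over all 32851 windows. GGGCGG, the GC box, was on either strand in 62.9% of member windows, in 62.0% of those with a tested probe and in 35.7% of all. CCGGAAG, an ETS-type motif, was in 20.0%, 16.7% and 8.86%, CCAAT in 47.1%, 38.1% and 37.4%, and TATAAA in 12.9%, 7.89% and 13.6%. These values are per window, so a gene with several starts counted more than once, and windows of the same gene could overlap. No motif is contained in another, and a match describes letters only. For the members with the largest difference on either side that have a window, and for the Sm gene that lay opposite to its ring, the 150 bases before the start are given 5′ to 3′, with matches to any of the 4 motifs on either strand in capitals.
Hnrnpl, chr7:28810740-28810889, plus strand: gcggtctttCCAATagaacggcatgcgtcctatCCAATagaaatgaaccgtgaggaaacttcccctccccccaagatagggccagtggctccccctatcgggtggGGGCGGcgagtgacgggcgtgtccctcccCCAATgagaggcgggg
Snrpd2, chr7:19149688-19149837, plus strand: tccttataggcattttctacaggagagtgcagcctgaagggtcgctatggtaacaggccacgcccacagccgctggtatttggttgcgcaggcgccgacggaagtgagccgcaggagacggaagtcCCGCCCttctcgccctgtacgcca
Snrpd3, chr10:75517892-75518041, plus strand: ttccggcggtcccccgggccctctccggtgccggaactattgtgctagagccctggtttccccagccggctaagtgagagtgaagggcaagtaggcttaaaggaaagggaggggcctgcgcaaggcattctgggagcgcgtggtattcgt
The Hnrnpl stretch holds 3 CCAAT and 1 GGGCGG, that of Snrpd2 holds 1 GGGCGG, read as CCGCCC, and that of Snrpd3 holds none of the 4 motifs.

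Low gainer array 2 was kept out of the comparison and is shown apart. Over the members, the log2 intensity of that array correlated with the mean of the other arrays at an r of 0.277 (25 probes), and the r of each of the 7 other arrays lay between 0.954 and 0.990 (49 probes). These correlations are across probes, which are not replicates. The 7 arrays had a value for 41.4% to 51.1% of all probes and for 50 to 55 of the 56 member probes. Of the 16 hypothalamic peptides and factors checked for the tissue, 14 had a probe and 11 a value on all 7 arrays, while Ghrh and Nkx2-1 had a value on none. Among those 11, the log2 difference (high minus low) was below 0 for 10 and above 0 for 1, with a median of -0.23, and limma called 0. For 3 lists of other cell types the summed marker intensities of the pools did not overlap. The summed intensity of the 3 measured pituitary hormones (Gh, Cga and Prl, of 14 pituitary markers listed, each called by limma) was 8.30 to 10.4 in the high gainer pool against 0.837 to 1.38 on low gainer arrays 1, 3 and 4. For the 6 measured oligodendrocyte genes of 11 it was 49.1 to 77.9 against 13.8 to 44.7, and for 3 red cell genes of 8 it was 8.94 to 14.8 against 18.4 to 37.2. The oligodendrocyte and red cell sums rested mostly on 1 bright probe each. Mbp had 42.1 to 66.7 against 9.68 to 36.1, and Hba-a1 had 8.11 to 13.9 against 17.0 to 35.8. The pools did not overlap for Mag and Hbq1a either, while they overlapped for Cnp, Cldn11, Mog, Mal and Alas2. The part of these cell types in the differences below was not tested, and in pooled tissue more cells of a type and more RNA per cell cannot be told apart.

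No member was called different between the high and low gainer pools. Of the 56 member probes, 49 (46 genes) had a value on all 7 arrays, and limma called 0 of them at an adjusted p of 0.05, where 3 of all 11169 probes tested were called (0.0269%). At an unadjusted p under 0.05 there were 5 of 49 member probes by limma, beside 6.48% of all probes. The study's methods used 0.01 for the unadjusted p together with 1.5-fold, and there limma gave 2 members as higher (0.457% of all probes) and 0 as lower (0.573% of all probes). The methods' t-test gave 1 member as higher (0.0806% of all probes) and 0 as lower (0.0895%). After adjustment it called 0 members and 0 of all 11169 probes. On log2 intensities, 33 of the 49 probes had a difference (high minus low) above 0, beside 49.6% of all probes. The median difference was 0.11 over the members and -0.0024 over all probes tested. Without low gainer array 3, 28 of 54 member probes were above 0, beside 5864 of all 11927 probes. The median was then 0.0067 over the members and -0.0048 over all probes. That fit also took in probes that only low gainer array 3 lacked.

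**Figure D1:**
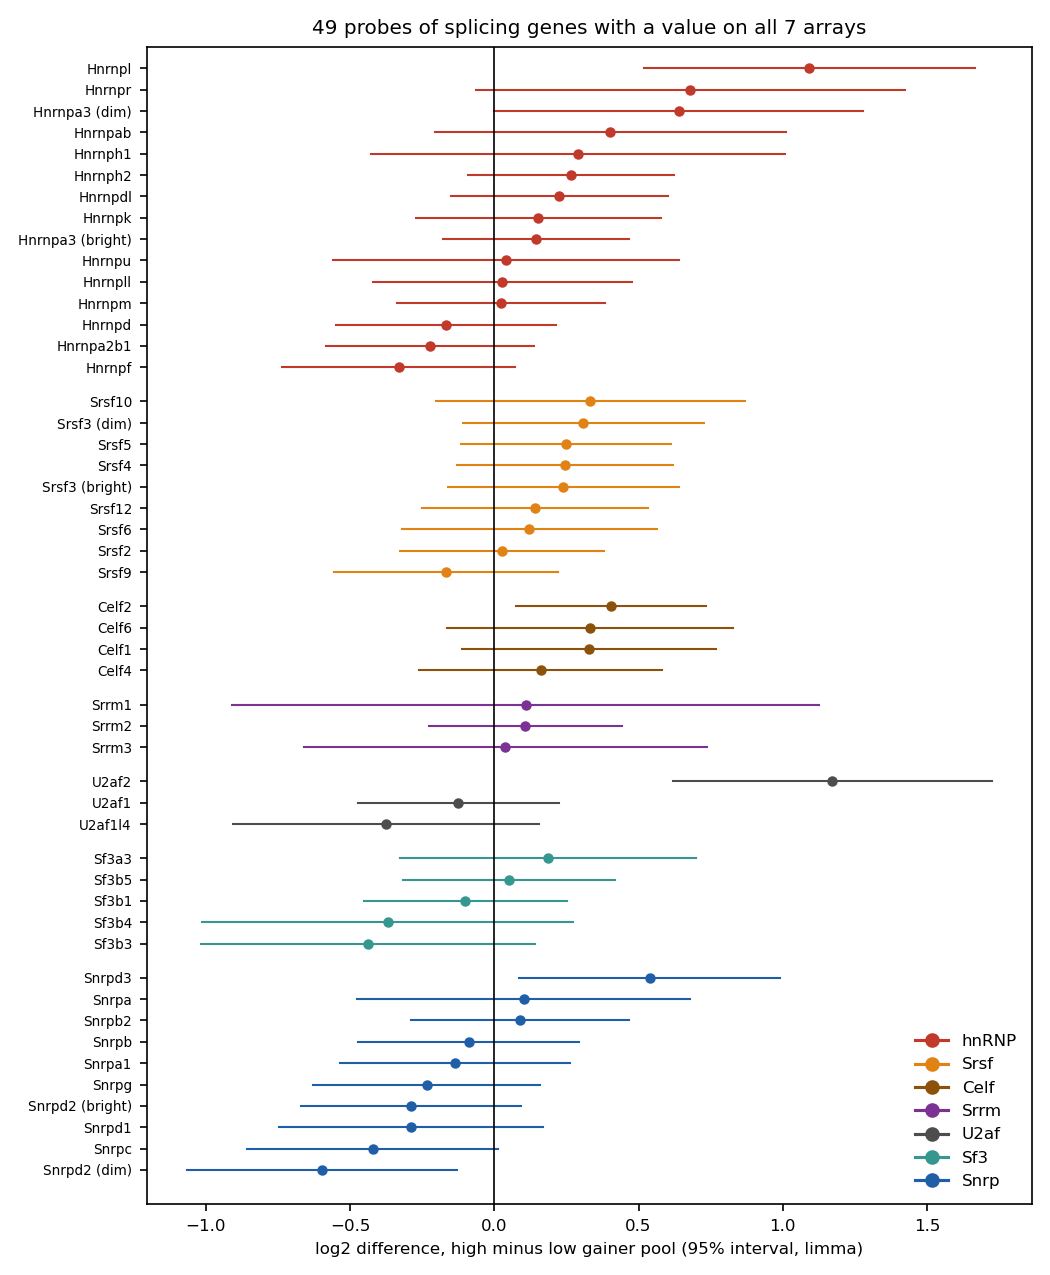
Log2 difference, high minus low gainer pool (x axis, with the 95% limma interval) for the 49 member probes with a value on all 7 arrays, grouped by family; dim and bright mark 2 probes of 1 gene. U2af2 (1.17) and Hnrnpl (1.09) lie farthest to the right and a Snrpd2 probe (-0.60) farthest to the left.

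The families did not lie on the same side. Of 15 hnRNP probes 12 were above 0, with a median log2 difference of 0.15, and of 9 Srsf probes 8 were above 0, with a median of 0.24. All 4 Celf probes were above 0, with a median of 0.33, as were the 3 Srrm probes, with a median of 0.11. Of 10 Snrp probes 7 were below 0, with a median of -0.18, and of 5 Sf3 probes 3 were below 0, with a median of -0.10. Neither these medians nor the differences between families were tested. These values moved when single arrays were left out. Without low gainer array 3 the median was 0.04 for hnRNP (8 of 15 probes above 0), 0.07 for Srsf (8 of 11), 0.14 for Celf (5 of 5), -0.07 for Srrm (1 of 3) and -0.13 for Snrp (2 of 10). The Srsf and Celf medians there also include dim probes that only this array lacked, so the probes changed along with the arrays. Without low gainer array 4 the hnRNP median was 0.35 (11 of 15), and without low gainer array 1 the Snrp median was -0.30 (3 of 10) and the Srrm median 0.0026 (2 of 3). The Sf3 median was -0.17 without low gainer array 1, -0.15 without high gainer array 1 and -0.0083 without high gainer array 2.

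U2af2 encodes the large U2AF subunit, which binds the pyrimidine tract before the 3′ splice site. Its deposited intensity was 0.880, 1.29, 0.666 and 0.814 on high gainer arrays 1 to 4, and 0.477, 0.316 and 0.351 on low gainer arrays 1, 3 and 4. Every high gainer array lay above every low gainer array, and low gainer array 2 had no value. The fold of high over low was 2.25, with a 95% interval from 1.53 to 3.30, and the adjusted p by limma was 0.705. The difference ranked 16 of 11169 probes. The probe was of middling to low brightness, at a percentile of 42.6 to 61.0 within the high gainer arrays and 17.8 to 38.2 within the low gainer arrays, and adding a pseudocount of 0.186 lowered its log2 difference from 1.17 to 0.89.

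The small subunit did not share that pattern. U2af1, which contacts the AG of the 3′ splice site, was the brightest U2AF probe, with an intensity of 17.8, 21.3, 23.0 and 21.2 on high gainer arrays 1 to 4 and 22.1, 29.1 and 18.5 on low gainer arrays 1, 3 and 4. The groups overlapped, and the log2 difference was -0.12 (interval from -0.47 to 0.22). U2af1l4, a paralogue of the small subunit, had 0.648, 0.833, 0.843 and 0.685 against 0.677, 1.15 and 1.09. Low gainer array 1 lay among the high gainer arrays and the other 2 above them, at -0.38 on the log2 scale (interval from -0.91 to 0.15).

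Hnrnpl, an hnRNP that binds CA-rich RNA and regulates exon inclusion, had the largest difference of its family. Its intensity was 4.32, 3.72, 2.52 and 2.09 on high gainer arrays 1 to 4, and 1.98, 0.985 and 1.45 on low gainer arrays 1, 3 and 4. The groups did not overlap, but high gainer array 4 and low gainer array 1 lay close together. The fold of high over low was 2.13, with an interval from 1.43 to 3.17, an adjusted p of 0.750 by limma and rank 22 of 11169. Hnrnpll, its closest paralogue, lay at 0.03 on the log2 scale (interval from -0.42 to 0.48).

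Celf2, which binds GU-rich RNA and is abundant in brain, was the brightest Celf probe. It had 30.3, 27.89, 35.4 and 37.2 on high gainer arrays 1 to 4 and 27.99, 27.89 and 20.7 on low gainer arrays 1, 3 and 4. In the deposited values high gainer array 2 lay level with low gainer arrays 1 and 3. After quantile normalization the groups did not overlap, at 0.40 on the log2 scale (interval from 0.08 to 0.73). Celf1, the paralogue known from myotonic dystrophy, had 1.09, 1.26, 1.35 and 1.23 against 1.12, 0.885 and 0.903. Only high gainer array 1 fell under the highest low gainer array, and the log2 difference was 0.33 (interval from -0.11 to 0.77). Celf6 and Celf4 were at 0.33 and 0.16.

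U2af2, Hnrnpl and Celf2 were the 3 of 49 member probes whose 4 high gainer arrays all lay above the 3 low gainer arrays on the normalized scale, beside 2.07% of all probes. The opposite order was found for 0 of 49, beside 2.7% of all probes. With median centring 2 members lay higher without overlap (1.74% of all probes) and 0 lower (2.28%). On the deposited values there were 2 (1.99%) and 0 (2.44%).

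**Figure D2:**
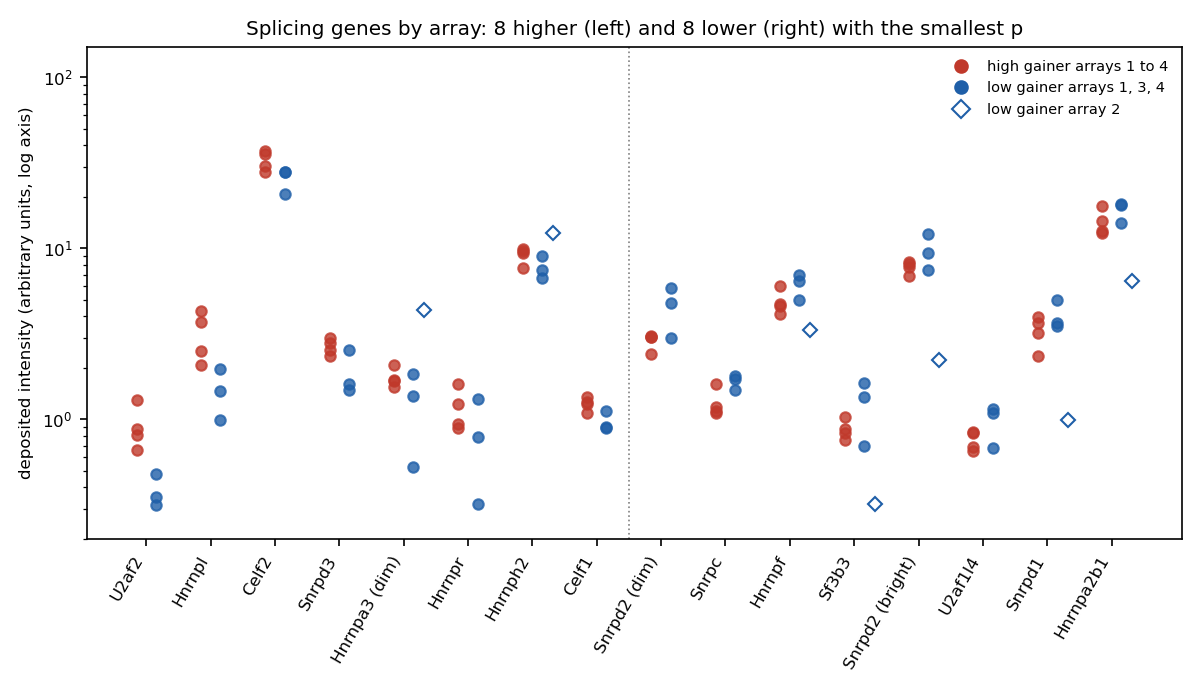
Deposited intensity (log axis, arbitrary units) on each array for the 8 member probes with the smallest p above 0 and the 8 below 0; red points are high gainer arrays 1 to 4, blue points low gainer arrays 1, 3 and 4, and open diamonds low gainer array 2 where it had a value. For U2af2 the red points lie between 0.666 and 1.29 and the blue points between 0.316 and 0.477.

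Among the other hnRNPs, low gainer array 3 stood lowest for several genes. Hnrnpr, an RNA-binding protein of neuronal mRNA, had 1.61, 1.23, 0.885 and 0.934 on high gainer arrays 1 to 4 and 0.785, 0.318 and 1.32 on low gainer arrays 1, 3 and 4. Low gainer array 4 lay among the high gainer arrays, and the log2 difference of 0.68 (interval from -0.06 to 1.42) was 0.19 without low gainer array 3. The dimmer Hnrnpa3 probe had 1.54, 2.07, 1.68 and 1.71 against 1.37, 0.530 and 1.83. Its log2 difference of 0.64 (interval from -2.26e-05 to 1.28) was 0.18 without low gainer array 3. The brighter probe of the same gene, the brightest of all hnRNP probes, had 23.9, 19.5, 24.9 and 25.5 against 23.7, 20.2 and 20.7, and a log2 difference of 0.15 (interval from -0.18 to 0.47). Hnrnph2, which binds G-rich RNA, had 9.43, 7.65, 9.63 and 9.91 against 8.95, 6.69 and 7.47, with overlap and a log2 difference of 0.27 (interval from -0.09 to 0.62).

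Hnrnpf, the close relative of Hnrnph2, lay on the other side. It had 4.57, 6.03, 4.71 and 4.13 on high gainer arrays 1 to 4 and 5.01, 6.43 and 7.01 on low gainer arrays 1, 3 and 4, a log2 difference of -0.33 (interval from -0.74 to 0.07). High gainer array 2 lay within the low gainer range. Hnrnpa2b1, which binds transport signals in neuronal and myelin mRNA, had 12.7, 14.5, 12.3 and 17.6 against 14.1, 18.2 and 17.8, and a log2 difference of -0.22 (interval from -0.58 to 0.14). The groups overlapped here too. The other hnRNP probes ran from -0.17 for Hnrnpd to 0.40 for Hnrnpab.

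Of the SR proteins, which bind exonic enhancers, Srsf4 was the brightest. Its intensity was 14.97, 11.2, 16.8 and 17.0 on high gainer arrays 1 to 4 and 14.5, 12.1 and 11.2 on low gainer arrays 1, 3 and 4. High gainer array 2 was as low as low gainer array 4, and the log2 difference was 0.25 (interval from -0.13 to 0.62). The remaining Srsf probes ran from -0.17 for Srsf9 to 0.33 for Srsf10. Both Srsf3 probes lay on the same side, at 0.31 and 0.24. Srrm2, a large protein of nuclear speckles and the brightest Srrm probe, had 18.3, 19.1, 23.4 and 21.7 against 17.6, 23.9 and 17.3. The groups overlapped over nearly all their range, with a log2 difference of 0.11 (interval from -0.23 to 0.44).

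Most Sm proteins, which form the ring of the snRNPs, had lower values in the high gainer pool. Of 6 probes for Snrpb, Snrpd1, Snrpd2, Snrpd3 and Snrpg, 5 had a log2 difference below 0, and the median was -0.26. Without low gainer array 3 it was -0.10, again with 5 of 6 below 0, and it was -0.17 without high gainer array 1 and -0.36 without low gainer array 1. Without low gainer array 4 it was -0.28, with 4 of 6 below 0. On low gainer array 3 the median deviation of the Sm probes from their mean over 7 arrays was 0.49 on the log2 scale, and on low gainer arrays 1 and 4 it was -0.15 and 0.11. On high gainer arrays 1 to 4 it was -0.14, -0.06, -0.04 and -0.08, so low gainer array 1 lay no higher than any of them.

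Snrpd2 had 2 probes. The dimmer one had 2.41, 3.06, 3.02 and 3.03 on high gainer arrays 1 to 4 and 3.0003, 5.85 and 4.77 on low gainer arrays 1, 3 and 4. Low gainer array 1 lay within the high gainer range and the other 2 well above it. The level was 1.51-fold in low over high gainers, with a log2 difference of -0.60 (interval from -1.07 to -0.13) and an adjusted p of 0.750 by limma. The brighter Snrpd2 probe had 8.26, 6.89, 8.06 and 7.77 against 7.44, 12.1 and 9.41, with the 3 low gainer arrays in the same order, and a log2 difference of -0.29 (interval from -0.67 to 0.09). Without low gainer array 3 the differences of the dimmer and brighter probes were -0.39 and -0.13.

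Snrpd1 had 2.34, 3.67, 3.22 and 3.99 on high gainer arrays 1 to 4 and 3.499, 5.01 and 3.67 on low gainer arrays 1, 3 and 4, a log2 difference of -0.29 (interval from -0.75 to 0.17). Snrpg, the brightest Snrp probe, had 10.3, 9.32, 13.4 and 12.2 against 11.1, 17.7 and 11.8, a log2 difference of -0.23 (interval from -0.63 to 0.16). In both genes only low gainer array 3 lay above all high gainer arrays, and without that array the differences were -0.12 for Snrpd1 and -0.06 for Snrpg. Without high gainer array 1 that of Snrpd1 was -0.13. Snrpd3, the partner of Snrpb in the ring, went the other way, with 2.54, 2.97, 2.33 and 2.77 against 2.53, 1.48 and 1.62. Its fold of high over low was 1.45 (interval from 1.06 to 1.99), and low gainer array 1 lay within the high gainer range. Snrpc, a protein of the U1 snRNP that steadies the pairing of U1 with the 5′ splice site, had 1.11, 1.62, 1.18 and 1.09 against 1.48, 1.72 and 1.79. High gainer array 2 was the one high array within the low gainer range, and the log2 difference was -0.42 (interval from -0.86 to 0.01). Snrpa, Snrpa1, Snrpb2 and Snrpb lay between -0.14 and 0.10.

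In the SF3 complex, which holds the branch point, Sf3b3 had the difference with the smallest p. It had 0.827, 1.03, 0.758 and 0.872 on high gainer arrays 1 to 4 and 0.697, 1.35 and 1.64 on low gainer arrays 1, 3 and 4. The low gainer arrays spanned the high ones, with a log2 difference of -0.44 (interval from -1.02 to 0.14). That difference was -0.81 without low gainer array 1, -0.27 without low gainer array 3 and -0.24 without low gainer array 4. Sf3b5, the brightest, had 16.7, 10.8, 14.6 and 14.2 against 13.1, 15.9 and 11.8, and a difference of 0.05 (interval from -0.32 to 0.42). Sf3b1, the core subunit, was at -0.10. Adjusted p-values by limma lay between 0.705 and 0.990 for all 49 member probes.

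**Figure D3:**
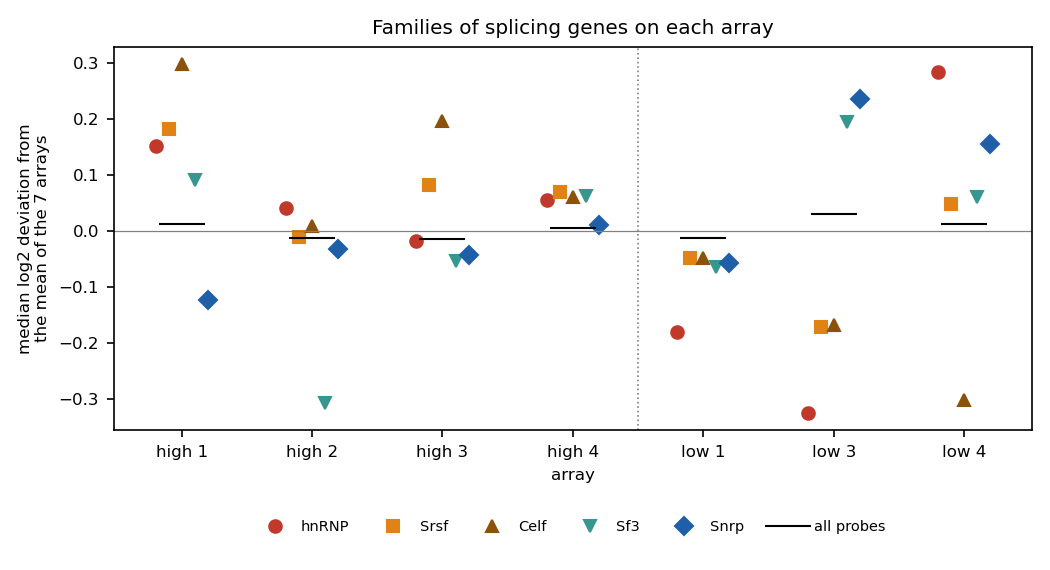
Median over the probes of a family of the log2 deviation from each probe's mean over 7 arrays (y axis), for each array (x axis); coloured symbols are families and black bars all probes. On low gainer array 3 the hnRNP median was -0.32 and the Snrp median 0.24, and on low gainer array 4 the hnRNP median was 0.28.

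The low gainer arrays differed from each other. The hnRNP median deviated by -0.18, -0.32 and 0.28 on low gainer arrays 1, 3 and 4, a wider span than that of the 4 high gainer arrays, from -0.02 to 0.15. Low gainer array 3 held the lowest of the 7 values for 15 of 49 member probes and the highest for 10. Over all probes it held the lowest for 17.6% and the highest for 23.7%. When low gainer array 1 was left out, limma called U2af2 (adjusted p = 0.0403), Hnrnpl (0.0374) and the dimmer Snrpd2 probe (0.0446), where 1.52% of all probes were called. In each of the 6 other fits that left out 1 array, limma called 0 members. The share of all probes called was 0.0263%, 0.0178%, 0.0263% and 0.0357% without high gainer arrays 1, 2, 3 and 4, and 0.0252% and 0.0267% without low gainer arrays 3 and 4.

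**Figure D4:**
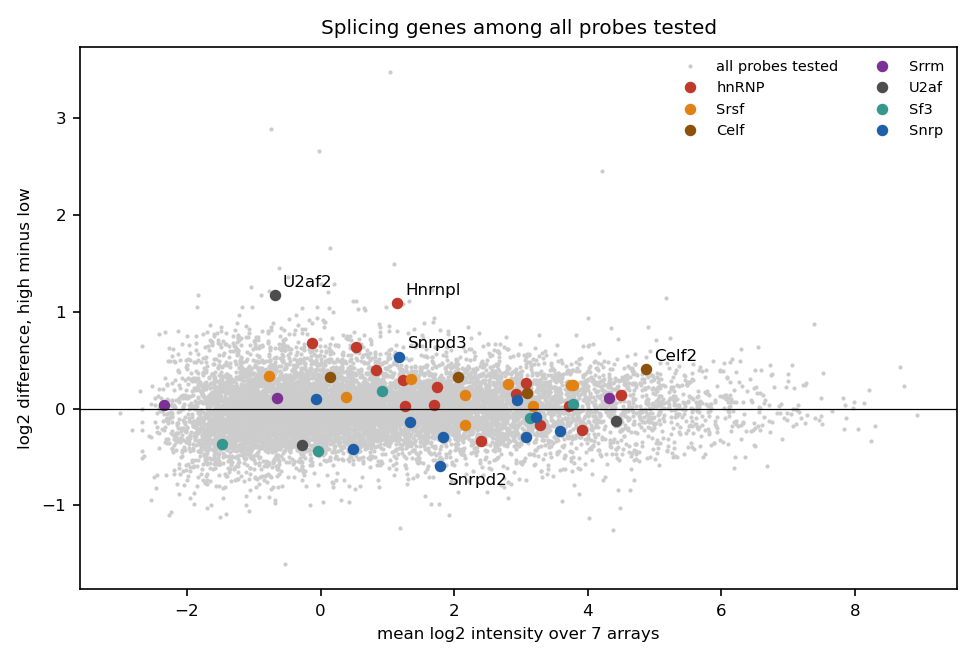
Log2 difference, high minus low gainer pool (y axis), against the mean log2 intensity over 7 arrays (x axis) for 11169 probes in grey and the 49 member probes coloured by family. U2af2, Hnrnpl, Snrpd3 and Celf2 are named above 0 and Snrpd2 below 0, and the most intense probes of the array hold no member.

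Further genes of the splicing pathway were counted from 4 lists. Of 38 probes (36 genes) for the spliceosome core and snRNP partners, 31 had a log2 difference below 0 and 0 were called in either direction, with a median of -0.14. The median was -0.09 without low gainer array 3 (27 of 41 below 0) and -0.09 without low gainer array 4 (25 of 38), and -0.28 without low gainer array 1 (34 of 38). The Lsm proteins, which form the ring of the U6 snRNP, had 5 of 6 probes below 0 and a median of -0.31. Lsm3 had 0.807, 1.19, 1.10 and 1.07 on high gainer arrays 1 to 4 and 1.25, 2.61 and 1.59 on low gainer arrays 1, 3 and 4, so the groups did not overlap. Its log2 difference was -0.74 and its adjusted p 0.750 by limma. On the normalized scale 3 of the 38 probes lay lower without overlap (2.7% of all probes) and 0 higher (2.07%). Phf5a, a small SF3b subunit, was at -0.61, while Cdc5l and Usp39 were the genes above 0 with the smallest p, at 0.37 and 0.21.

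Of 32 probes for splicing regulators outside the named families, 22 were above 0 and 0 were called, with a median log2 difference of 0.10. On the normalized scale 4 of them lay higher without overlap (2.07% of all probes) and 2 lower (2.7%). Pcbp1, a poly(C)-binding hnRNP, had 2.02, 3.04, 2.10 and 2.35 against 1.91, 0.670 and 1.89 on the low gainer arrays. The groups did not overlap, at a log2 difference of 0.79 (interval from 0.17 to 1.41). Syncrip, a relative of Hnrnpr, was at 0.63 (interval from -0.02 to 1.27), and its groups overlapped. Khdrbs2, a brain regulator of neurexin splicing, was at -0.57, without overlap on the normalized scale, and Pcbp2 was at -0.31. Of 6 probes for kinases of SR proteins 3 were above 0 and 3 below, with a median of -0.0013, where Prpf4b was at 0.24, 1 Srpk2 probe at 0.06 and the other at -0.04, and Clk3 at -0.18. Of 7 probes for exon junction and export factors 4 were above 0, with a median of 0.0093, where Acin1 was at 0.27, Thoc6 at 0.23, Thoc5 at -0.11 and Thoc7 at -0.04. None of these 13 was called.

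The 7 member probes without a value on all 7 arrays were dim. Celf3, Sf3b2, Srsf1 and 1 probe each of Sf3b4 and Srsf10 had values on every high gainer array and on the low gainer arrays numbered 1 and 4, between 0.207 and 0.830. Low gainer array 3 lacked each of the 5. Hnrnpul1 was measured by 2 arrays of the high gainer pool and by 3 of the low gainer pool (1, 2 and 3), and the neuronal microexon regulator Srrm4 had one on high gainer array 1 (0.213) and on low gainer array 2 (0.241).

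Low gainer array 2 differed from the other arrays probe by probe. It had a value for 28 of the 56 member probes. Of these, 19 lay below all values of the 7 other arrays, 6 above all of them and 3 within their range. Srrm2 had an intensity of 0.503 there, and the lowest of the 7 other arrays had 17.3. Snrpg was at 0.242 against a lowest value of 9.32 on the others, and Hnrnpm at 0.317 against 10.5. In the other direction, Hnrnpdl was at 70.1, where the highest of the 7 had 3.88. Of the 49 members with a value on the 7 other arrays, 48.98% were empty on that array, beside 51.9% of all probes tested, and Celf2 (low gainer mean of 25.5 ± 4.16, SD, n = 3) was the brightest of the empty ones by that mean.

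**Figure D5:**
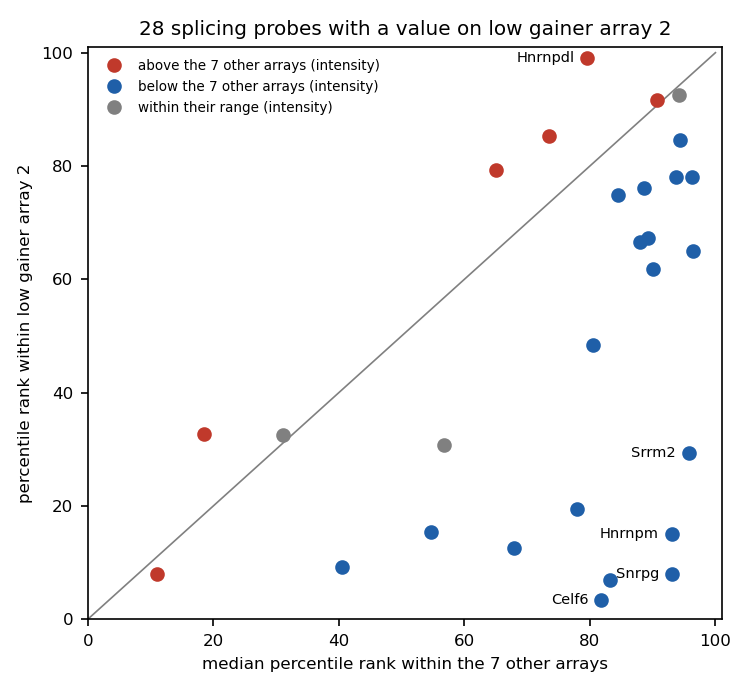
Percentile rank of the intensity within low gainer array 2 (y axis) against the median percentile rank within the 7 other arrays (x axis) for the 28 member probes with a value on that array, with the line of equality. Red points had an intensity above and blue points below the 7 other arrays, and Srrm2 was at 29.3 on low gainer array 2 and 95.7 on the others.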

How the data were processed

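Pooled hypothalamus RNA was labelled with digoxigenin and hybridised to a 1-colour Applied Biosystems mouse array read by chemiluminescence. The authors' methods name quantile normalization, and the deposited values are intensities on a linear scale with many empty cells. The medians of the 7 arrays compared ran from 0.714 to 0.990. Their log2 intensities were therefore quantile normalized again across the 11169 probes that none of these arrays lacked. The methods called features detected by a minimum signal-to-noise and a quality flag. Whether that rule left the cells empty, and how values were scaled, is not given in the sources used here. The annotation named 1 gene for 14411 of 33012 probes and several for 247, and 18354 are unnamed here. By gene identifier 14402 matched RefSeq (GRCm38.p6), the 56 member probes among them.

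Groups came from the sample labels. The fit was limma 3.58.1 in R 4.3.3 (lmFit, eBayes with trend) on all probes with Benjamini-Hochberg adjustment, no filter on brightness and low gainer array 2 left out. It was tested on simulated data. Members, lists and the omission of that array were chosen with earlier results of these data known. Named were the 8 members per direction with the smallest p, the brightest probe of each family and, per pathway list, 2 genes per direction. Alternatives were 2 other normalizations, deposited values, the brightest 50% of probes, probes with some empty cells (values on at least 3 high and 2 low gainer arrays), a pseudocount at the 10th percentile, all 8 arrays with and without array weights, the replicate block, no trend, the methods' t-test and leaving out each array. The number of arrays limits the precision, and hybridisation of probes to related genes or pseudogenes was not tested.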

Additional observations from a re-analysis of the deposited data

Results flagged for a closer look

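In groups of 4 arrays with a value on each, 34 groups of the named probes were searched for a single array far from the rest, and 4 were found. Chance gives about 1 in 20 groups. Every low gainer group searched held low gainer array 2, which had already been set apart, so the 4 cannot be compared with that rate. The dimmer Snrpd2 probe had 2.41 on high gainer array 1, with the other 3 between 3.02 and 3.06. The other 3 concern low gainer array 2, where Snrpg had 0.242 (11.1 to 17.7 on low gainer arrays 1, 3 and 4), Srrm2 had 0.503 (17.3 to 23.9) and the brighter Hnrnpa3 probe had 1.99 (20.2 to 23.7).

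Low gainer array 2, which entered no comparison, held 6 member probes above the range of low gainer arrays 1, 3 and 4. Hnrnpdl was at 70.1 (2.61 to 3.72 on the others), Hnrnph2 at 12.3 (6.69 to 8.95), Hnrnph1 at 6.74 (1.27 to 4.58) and the dimmer Hnrnpa3 probe at 4.33 (0.530 to 1.83). Hnrnpul1 was at 0.561 (0.185 to 0.427 on 2 arrays) and 1 Sf3b4 probe at 0.557 (0.342 to 0.397 on 2 arrays).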

How the results depend on the processing

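No gene of the 4 pathway lists was called under any alternative run, and members were called only without low gainer array 1 and at the threshold of the methods. Over fits that left out 1 array, the members called ran from 0 to 3 (the 3 without low gainer array 1). The median member difference (log2) ran from 0.0067 (without low gainer array 3, over 54 probes) to 0.16. The members whose groups did not overlap ran from 3 to 18. The 18 came without low gainer array 1, with 9 above (11.4% of all probes) and 9 below (15%). Without low gainer array 4 there were 12 above (9.23%) and 1 below (7.14%), in all 13, without high gainer array 2 there were 7 (5.29%) and 2 (5.17%), in all 9, and without high gainer array 1 there were 5 (2.80%) and 0 (4.01%). At the threshold of the methods limma gave 2 members (0.457% of all probes higher, 0.573% lower) and the t-test 1 (0.0806% higher, 0.0895% lower). With all 8 arrays only 25 member probes had values throughout, so U2af2, Hnrnpl and Celf2 could not be fitted. The median was 0.27 there, and 0 members did not overlap, with array weights also 0 (1.21% of all probes above and 1.51% below). Signs turned with all 8 arrays for the brighter Snrpd2 probe (0.082), Snrpd1 (0.037), Hnrnpa2b1 (0.040), Snrpg (1.07) and U2af1 (0.40), and with array weights for Sf3b5 (-0.00099). Leaving out 1 array, Sf3b5 ran from -0.037 to 0.16 and U2af1 from -0.24 to 0.011. The cause of these changes was not tested. In all, 313 of 325 values of the 22 named probes under alternatives kept their direction and their side of the threshold.

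With the replicate number as a block, 0 members were called, the median was 0.14 and 3 did not overlap (2.07% of all probes above and 2.7% below, the block leaving the values as they were), while 9 of all probes were called in place of 3. Because low gainer array 2 was left out, high gainer array 2 had no partner in this fit. It therefore added nothing to the estimated difference, and the median in the fit without high gainer array 2 was also 0.14. The deviations of same-numbered arrays correlated at an r of -0.20, 0.13 and -0.14 for numbers 1, 3 and 4. Pairs with different numbers ran from -0.52 to 0.45. Whether the number marks a shared run was not tested.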

Other observations

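The median within-pool SD was 0.25 on the log2 scale over the 49 members and 0.28 over all probes tested. With the probes tested divided into 4 equal classes of brightness, it was 0.21 for the 23 members in the brightest class (0.22 over all its probes) and 0.33 for the 13 in the next (0.26). The members' median SD was 0.17 over the 4 high gainer arrays and 0.30 over the 3 low gainer arrays, and over all probes these were 0.22 and 0.33. Of these 13 members 10 had a log2 difference above 0 (median 0.23), and of the 23 brightest 14 (median 0.05), which was not tested. Over all probes of the same classes, 1455 of 2792 (median 0.011) and 1512 of 2792 (median 0.024) were above 0.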
